A study of Nicotiana tabacum with 15 samples.

Results

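A receptor gene, a transcription factor gene and a pair of F-box genes of ethylene signalling were followed through root RNA-seq of tobacco (Nicotiana tabacum) hybrids and their parents. They are 1 gene annotated by the study to the ethylene receptor ETR (Nitab4.5_0000342g0270, called ETR here), 1 annotated to the transcription factor EIN3 (Nitab4.5_0003796g0080, EIN3) and 2 annotated to the F-box proteins EBF1/2 (Nitab4.5_0000028g0350, EBFa, and Nitab4.5_0004209g0030, EBFb). They were taken by ID, as genes of the hormone signalling that the study described, and are 4 of the 69500 gene models in the deposited table and 4 of the 37232 that were tested. The study placed them among genes overexpressed in both hybrids on the basis of these same libraries, so their direction in the hybrids is not independent evidence. It also listed further genes for ETR2 and EBF1/2, which are not followed here. The genotypes were the F1 hybrids GJ (G70 × JCP, the male parent being Jiucaiping No.2) and KJ (K326 × JCP), and the parents were G (G70), K (K326) and J (JCP), which both hybrids share. Each genotype had 3 libraries, 15 in all, from young roots at the seedling stage grown without any treatment that the labels name. The titles of the labels name leaf, whereas their tissue entry and the study give root, and no marker gene could be matched to an ID to check it. Neither the labels nor the study state if roots of several plants were pooled in a library, and p-values therefore cover library-to-library spread, which may be technical.

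In Arabidopsis, ethylene receptors such as ETR1 and ETR2 sit in the membrane of the endoplasmic reticulum and hold the pathway off, through the kinase CTR1, as long as no ethylene is bound. When ethylene binds, EIN2 signals to the nucleus and the transcription factor EIN3 accumulates and switches on ethylene response genes, among them ERF1. EBF1 and EBF2 are the F-box proteins that mark EIN3 for degradation, and EBF2 and several receptor genes are themselves induced by ethylene in that species, so the pathway contains feedback at both ends. In roots, ethylene is best known for limiting cell elongation and promoting root hairs. EIN3 is controlled to a large part at the level of protein, which RNA-seq does not measure.

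The deposited values are FPKM, read counts per gene length and per library total. Read counts per gene are unknown here, and for the depth the study's text gives only a range of clean reads over the samples. Levels can thus be compared between genes, but comparisons between libraries depend on the scaling, and other scalings are given below. FPKM summed to between 801594 and 827438 per library, sums that values scaled to a fixed total would also give. All comparisons used log2(FPKM + 1), and the added 1 makes a fold change at a few FPKM smaller than the ratio of FPKM. A gene was called higher or lower when its p, adjusted over all tested genes (Benjamini-Hochberg), was 0.05 or less and its log2 fold change reached 1 in either direction, and only then is it said to have risen or fallen. Among parental libraries, G replicate 1, K replicate 2 and J replicate 2 stood apart from the other libraries of their genotype. They had 3163, 2911 and 1979 tested genes at least 2-fold away from the mean of the other 2 libraries, against 411 to 2657 in the remaining 6 parental libraries and 488 to 1225 in the 6 hybrid libraries. Their deviations from the genotype mean correlated across genes with r of 0.546 to 0.595 between them, so results are also given without these libraries where they bear on a value.

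All 4 genes had the highest mean in KJ and the second highest in GJ, followed by K, with G and J lowest. EBFa was the most abundant, and EIN3 varied least.

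ETR, the receptor gene, had 7.08, 3.53 and 4.15 FPKM in GJ (replicates 1 to 3) and 7.28, 9.48 and 10.72 in KJ. In the parents it had 1.40, 2.27 and 2.90 FPKM in G, 4.81, 1.45 and 5.95 in K, and 1.48, 1.44 and 1.75 in J. Both hybrids lay above all libraries of their own parents, but the GJ replicates 2 and 3 lay below 2 of the K libraries. Replicate 2 of K was far below the other K libraries, at the level of J. The means were 4.92 ± 1.90 FPKM in GJ, 9.16 ± 1.74 in KJ, 2.19 ± 0.753 in G, 4.07 ± 2.34 in K, and 1.56 ± 0.169 for the 3 J libraries (SD).

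EIN3 had 4.90, 4.61 and 4.82 FPKM in GJ and 3.91, 5.78 and 6.29 in KJ. It had 2.67, 2.18 and 2.20 FPKM in G, 4.29, 3.97 and 4.40 in K, and 2.30, 2.77 and 2.71 in J. GJ lay well above G and J without overlap, while KJ overlapped with K, KJ replicate 1 being lower than every K library. The means were 4.78 ± 0.150 FPKM in GJ, 5.33 ± 1.25 in KJ, 2.35 ± 0.277 in G, 4.22 ± 0.223 in K, and 2.59 ± 0.256 for the 3 J libraries (SD). The whole range over the 15 libraries was 2.89-fold, against 7.66-fold for ETR, 12.1-fold for EBFa and 10.4-fold for EBFb.

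EBFa, an F-box gene of the EIN3 control step, had 56.61, 26.18 and 39.48 FPKM in GJ and 46.06, 71.50 and 98.01 in KJ. It had 16.48, 9.6 and 9.88 FPKM in G, 21.02, 24.81 and 16.49 in K, and 8.38, 21.79 and 8.12 in J. EBFa was the only 1 of the 4 genes whose 6 hybrid libraries all lay above all 9 parental libraries, a pattern of 2.69% of the tested genes, although the gap between the lowest hybrid library (26.18 FPKM) and the highest parental library (24.81 FPKM) was small. The means were 40.8 ± 15.3 FPKM in GJ, 71.9 ± 25.98 in KJ, 12.0 ± 3.89 in G, 20.8 ± 4.17 in K, and 12.8 ± 7.82 for the 3 J libraries (SD). In KJ 6.1% of the tested genes had a mean at or above that of EBFa, and in G 33.7% had.

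EBFb, the other F-box gene, had 33.34, 11.02 and 18.06 FPKM in GJ and 26.28, 39.16 and 46.81 in KJ. It had 10.43, 4.5 and 5.45 FPKM in G, 14.62, 20.48 and 12.70 in K, and 4.82, 14.04 and 5.32 in J. KJ lay above all libraries of K and J, while GJ replicate 2 lay below J replicate 2. The means were 20.8 ± 11.4 FPKM in GJ, 37.4 ± 10.4 in KJ, 6.79 ± 3.19 in G, 15.9 ± 4.05 in K, and 8.06 ± 5.18 for the 3 J libraries (SD). Replicate 1 of G and replicates 2 of K and J were the highest libraries of their genotype for both EBF genes and the lowest for ETR.

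**Figure D1:**
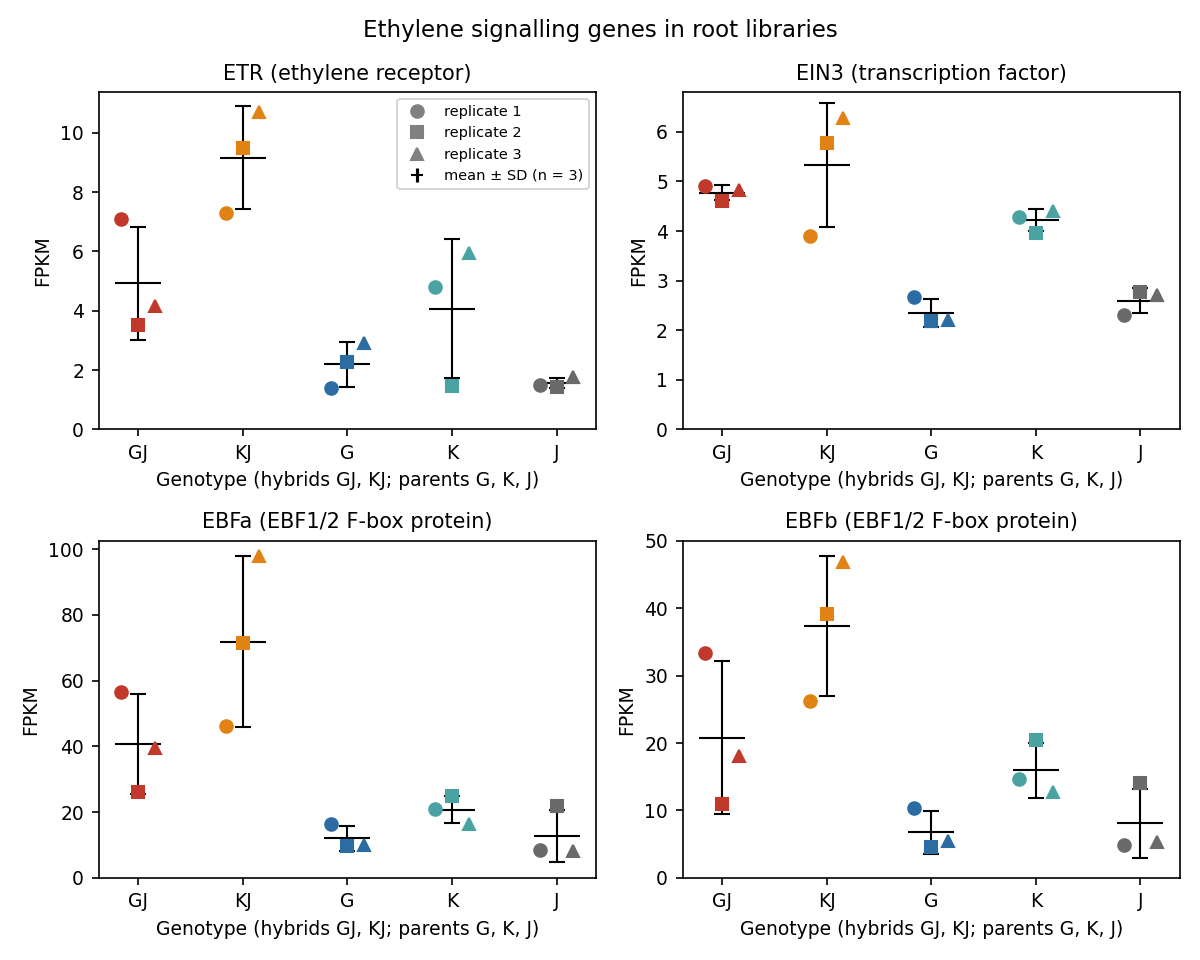
FPKM of ETR, EIN3, EBFa and EBFb in the 15 root libraries, with 1 point per library (circle, square and triangle for replicates 1, 2 and 3) and the mean ± SD of each genotype as bars (n = 3), hybrids GJ and KJ on the left and parents G, K and J on the right. EBFa is above 26 FPKM in every hybrid library and below 25 FPKM in every parental library, and ETR in K replicate 2 (1.45 FPKM) lies far below the other K libraries.

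The first question of the design was whether each hybrid differed from its parents. In GJ, EBFa rose against G and against J, and ETR, EBFa and EBFb rose against the middle parent (the average of its parents in log2 values). Against G, 2 of the 4 genes were called higher, EBFa and EBFb, where 2.39% of all tested genes were, and the median log2 fold change was 1.15 over the 4 genes and -0.06 over all tested genes. EBFa had a log2 fold change of 1.66 ± 0.39 (SE, adjusted p = 0.0181) and EBFb of 1.43 ± 0.44 (SE, adjusted p = 0.0476). ETR missed the limits with 0.87 ± 0.34 (adjusted p = 0.103, 95% confidence interval 0.13 to 1.62). Against J, 2 of 4 were called higher, ETR and EBFa, with a background of 1.96%. ETR had 1.17 ± 0.34 (adjusted p = 0.0450), EBFa 1.67 ± 0.39 (adjusted p = 0.0200), and EBFb was not called at 1.28 ± 0.44 (adjusted p = 0.0735).

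Against the middle parent of GJ, 3 of 4 genes were called higher, with a background of 2.4%. EBFa had a log2 fold change of 1.67 ± 0.34 (SE, adjusted p = 0.00719), EBFb of 1.35 ± 0.38 (adjusted p = 0.0267) and ETR of 1.02 ± 0.30 (adjusted p = 0.0310). As ratios of mean FPKM, GJ was 3.40 times G and 3.19 times J for EBFa, 3.06 and 2.58 times for EBFb, 2.25 and 3.16 times for ETR and 2.03 and 1.84 times for EIN3. Most calls in GJ ended in at least 1 of the fits without a single library. Without GJ replicate 1 the EBFa calls ended (adjusted p = 0.0788 against G and 0.0823 against J), as did those of EBFb and ETR, and only the call of EBFa against the middle parent held without any 1 library. The calls of EBFa also ended without GJ replicate 3 (0.0512 against G, 0.0540 against J), G replicate 2 (0.0645), J replicate 1 (0.0881) and J replicate 3 (0.0813). EBFb against G lost its call in 10 of 15 such fits (adjusted p from 0.0524 to 0.178), all except those without GJ replicate 2, KJ replicate 1, G replicate 1, K replicate 2 or J replicate 2. ETR against J lost it in 10 fits as well (0.0503 to 0.160), all except those without a G library, K replicate 2 or K replicate 3. For both genes some of these fits left out a library outside the comparison, such as KJ replicate 2, at an unchanged fold change. Without GJ replicate 2 the call of ETR against J ended at a larger fold change (1.34, adjusted p = 0.0600). Against the middle parent, ETR lost its call without GJ replicates 1 or 3, G replicate 1 or J replicates 1 or 2 (0.0501 to 0.152), and EBFb without GJ replicates 1 or 3, G replicate 2 or J replicates 1 or 3 (0.0510 to 0.144). EBFb against J gained a call without J replicate 2 (1.71, adjusted p = 0.0314).

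EIN3 missed the fold limit in GJ at every parent, with small errors. Its log2 fold change was 0.79 ± 0.14 against G (SE, adjusted p = 0.00550), 0.69 ± 0.14 against J (adjusted p = 0.0118) and 0.74 ± 0.12 against the middle parent (adjusted p = 0.00267), and the confidence interval of the last was 0.47 to 1.00. These p-values passed the limit, and the fold on the log2(FPKM + 1) scale did not. With a pseudocount of 0.1 the value against G was 0.998, still below the limit. Of all tested genes, 5.69% had a log2 fold change against the middle parent at least as high as that of EIN3, and 0.69% at least as high as that of EBFa.

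In KJ, EBFa and ETR rose against both parents, and EBFb rose against J and the middle parent. Against K, 2 of the 4 genes were called higher, EBFa and ETR, with a background of 3.19%. EBFa had a log2 fold change of 1.70 ± 0.39 (SE, adjusted p = 0.00772) and ETR of 1.12 ± 0.34 (adjusted p = 0.0256). EBFb just missed the limit with 1.17 ± 0.44 (adjusted p = 0.0541), and EIN3 was at 0.26 ± 0.14 (adjusted p = 0.170, confidence interval -0.05 to 0.57). Against J, 3 of 4 were called higher, with a background of 4.8%. The log2 fold changes were 2.48 ± 0.39 for EBFa (adjusted p = 8.55e-04), 2.19 ± 0.44 for EBFb (adjusted p = 0.00286) and 1.98 ± 0.34 for ETR (adjusted p = 0.00136), while EIN3 had 0.80 ± 0.14 (adjusted p = 0.00152) and stayed below the fold limit.

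Against the middle parent of KJ, 3 of 4 genes were called higher, with a background of 4.18%. EBFa had a log2 fold change of 2.09 ± 0.34 (SE, adjusted p = 7.29e-04), EBFb of 1.68 ± 0.38 (adjusted p = 0.00417), ETR of 1.55 ± 0.30 (adjusted p = 0.00174) and EIN3 of 0.53 ± 0.12 (adjusted p = 0.00489, not called). The median over the 4 genes was 1.61 and over all tested genes -0.24, so the changes in KJ are 0.24 larger relative to the median gene. Among all tested genes 1557 were higher and 2462 lower in this comparison, a split that turned to 2458 and 1397 with median-of-ratios scaling. For the 4 genes that scaling turned no direction against a parent. It added the calls of EBFb against K (1.48, adjusted p = 0.0216) and of EIN3 against J (1.01, adjusted p = 2.78e-04). EIN3 against K was at 0.52 with that scaling (adjusted p = 0.0114) and at 0.53 with quantile normalization (adjusted p = 0.0111), short of the fold limit in both. All calls against J and the middle parent, and that of EBFa against K, held without any 1 library. The call of ETR against K ended without K replicate 2, the library with the low ETR value (0.66, adjusted p = 0.0984), and without KJ replicate 2 (0.0613) or 3 (0.0773). EBFb against K gained a call without GJ replicate 1, GJ replicate 2, G replicate 1 or J replicate 2 (adjusted p from 0.0339 to 0.0445), at the same fold change.

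**Figure D2:**
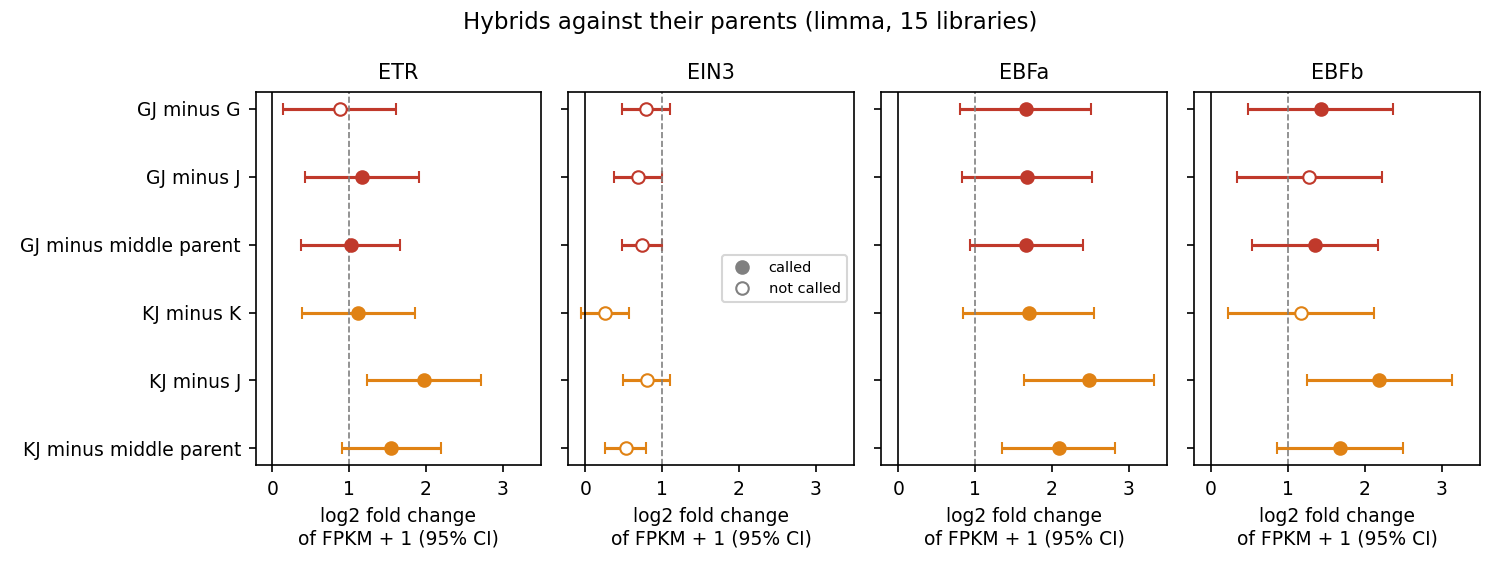
Log2 fold change of FPKM + 1 with its 95% confidence interval (limma, all 15 libraries) for each gene in GJ (upper 3 rows) and KJ (lower 3 rows) against the female parent, the male parent J and the middle parent. Filled points were called, the dashed line is the fold limit of 1, and EIN3 lies below it in all 6 comparisons while EBFa lies above it in all 6.

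The study reported the receptor, transcription factor and F-box genes as up-regulated overdominant in both hybrids. It called genes with DESeq2 at a p of 0.05 or less, with no adjustment named, and the same fold limit. The calls here came from limma on log2(FPKM + 1) with adjusted p. The study sorted its own differentially expressed genes into expression patterns with other software, and that sorting was not repeated here. A gene without calls here can therefore still belong to that pattern. Called higher than both parents by the limits used here were EBFa in both hybrids and ETR in KJ. This was the case for 1.27% of all tested genes in GJ, 2.5% in KJ and 0.736% in both. Taken by overlap in place of calls, the 3 GJ libraries lay above all 6 libraries of G and J for ETR, EIN3 and EBFa, 3 of the 4 genes, where 9.42% of the tested genes did. The 3 KJ libraries lay above all 6 libraries of K and J for ETR, EBFa and EBFb, again 3 of 4, with a background of 9.35%.

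The parents of a cross were not called different for any of the 4 genes. In J against G, 0 of 4 were called by limma and 0 had an unadjusted p under 0.05 (0.943% of the tested genes were called and 8.3% had such a p), and the log2 fold changes ran from -0.29 ± 0.34 for ETR to 0.15 ± 0.44 for EBFb (SE). In J against K, 0 of 4 were called by limma and 3 had an unadjusted p under 0.05, all except EBFa (0.416% of the tested genes were called and 8.33% had such a p), with values of -0.86 ± 0.34 for ETR, -0.54 ± 0.14 for EIN3, -0.78 ± 0.39 for EBFa and -1.02 ± 0.44 for EBFb and adjusted p from 0.187 to 0.648. All 4 genes had lower means in J than in K, by ratios of K to J between 1.63 for both EIN3 and EBFa and 2.61 for ETR. Without K replicate 2, ETR was called lower in J than in K (-1.32, adjusted p = 0.0470). K was also above G in all 4 means, but 0 of 4 were called by limma, with a background of 0.808%, and EIN3 and EBFb had an unadjusted p under 0.05, as 11.5% of the tested genes had. The nearest to a call was EIN3 with a log2 difference of 0.64 ± 0.14 for K against G (adjusted p = 0.0516).

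In the order of the genotype means, no neighbouring pair passed the test for any of the 4 genes, with adjusted p from 0.187 to 1.00. For GJ against KJ, which share the parent J, the log2 fold change was -0.81 ± 0.34 for ETR, -0.11 ± 0.14 for EIN3, -0.80 ± 0.39 for EBFa and -0.91 ± 0.44 for EBFb (SE, adjusted p from 0.216 to 0.671). None of the 4 was called by limma, with a background of 0.438%, and ETR had an unadjusted p under 0.05, as 20.6% of the tested genes had. GJ stood close to K, the female parent of the other cross, with 0.31 ± 0.34 for ETR, 0.15 ± 0.14 for EIN3 and 0.26 ± 0.44 for EBFb. The confidence intervals of these reached 1.05, 0.45 and 1.20, so a 2-fold difference in ETR or EBFb is not shut out. EBFa was 0.89 ± 0.39 above K in GJ (adjusted p = 0.192, unadjusted p = 0.0409, where 23.5% of the tested genes were under 0.05), so that 0 of 4 genes were called by limma, with a background of 1.98%.

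The departures of the hybrids from their middle parents were compared with each other in the same fit. The departure of GJ minus that of KJ was -0.53 ± 0.38 for ETR, 0.21 ± 0.16 for EIN3, -0.42 ± 0.44 for EBFa and -0.33 ± 0.49 for EBFb (SE), and 0 of 4 were called by limma, with a background of 0.508% and adjusted p from 0.428 to 0.715. The unadjusted p-values were 0.191, 0.210, 0.354 and 0.513. The intervals were -1.36 to 0.30 for ETR, -0.13 to 0.55 for EIN3, -1.37 to 0.53 for EBFa and -1.38 to 0.73 for EBFb, and the median of all tested genes was 0.16.

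The balance between the genes differed between libraries. EBFa had 5.68 to 11.6 times the FPKM of EIN3 in GJ and 11.8 to 15.6 times in KJ, against 4.40 to 6.17 times in G, 3.75 to 6.25 in K and 2.996 to 7.87 in J. EBFb had 2.39 to 6.80 times the FPKM of EIN3 in GJ and 6.72 to 7.44 times in KJ, against 2.06 to 3.91 in G, 2.89 to 5.16 in K and 1.96 to 5.07 in J. In KJ both ratios of F-box gene to EIN3 thus lay above all parental libraries, while in GJ they overlapped with them. The ratio of ETR to EIN3 was 0.766 to 1.44 in GJ and 1.64 to 1.86 in KJ, against 0.524 to 1.32 in G, 0.365 to 1.35 in K and 0.520 to 0.646 in J. EBFa stayed above EBFb in every library, at 1.70 to 2.38 times in GJ and 1.75 to 2.09 times in KJ, against 1.58 to 2.13 in G, 1.21 to 1.44 in K and 1.53 to 1.74 in J. These ratios are a description and were not tested.

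Variation among libraries of the same genotype was larger for the F-box genes and the receptor gene than for most genes. The standard deviation within genotypes on the log2 scale was 0.59 for EBFb, 0.53 for EBFa, 0.46 for ETR and 0.16 for EIN3, against a median of 0.23 over the tested genes. Of these, 8.33% had a deviation at least as large as EBFb, 11% as EBFa, 15.3% as ETR and 80.6% as EIN3.

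Within genotypes, the F-box genes moved closely together over the 15 libraries. Small deviations of opposite sign occurred in GJ replicate 3 (0.02 for EBFa, -0.06 for EBFb) and K replicate 1 (0.03 and -0.09). Deviations from the genotype mean were compared for the 6 pairs of genes, and libraries were permuted within genotypes in an exact two-sided test. For EBFa and EBFb Pearson's r was 0.968 (exact permutation p = 2.57e-04, adjusted p over the 6 pairs = 0.00154) and Spearman's rho was 0.954 (exact permutation p = 5.14e-04, adjusted 0.00309). Without the libraries farthest from the median of EBFa, J replicate 2 and KJ replicate 1, r was 0.966. Of the 37231 other tested genes none had a higher r with EBFa than EBFb had, and none had a higher r with EBFb than EBFa had. Over the 6 hybrid libraries alone r was 0.954 and over the 9 parental libraries 0.979. Without G replicate 1, K replicate 2 and J replicate 2 it was 0.941 in 12 libraries. The authors' tool RSEM divides reads that match several gene models between them, and whether the 2 F-box genes share such reads was not tested, since no sequence of them was at hand.

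The r of EIN3 with the F-box genes was lower. Pearson's r was 0.616 with EBFa (exact permutation p = 0.0289, adjusted 0.0579) and 0.535 with EBFb (exact permutation p = 0.0206, adjusted 0.0579), and rho was 0.607 (exact permutation p = 0.0482, adjusted 0.0965) and 0.621 (exact permutation p = 0.0231, adjusted 0.0694). Neither passed the limit after adjustment, and 7.96% and 14.2% of the tested genes had an r with EBFa and EBFb at least as high. Without KJ replicates 1 and 3, the libraries farthest from the median of EIN3, r was 0.528 and 0.563. The only KJ library left then equals its genotype mean, so KJ added nothing to these values. They cannot tell the effect of those libraries from that of leaving out KJ.

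For ETR and the F-box genes r was near 0 over all libraries, high over the hybrid libraries and negative over the parental libraries, where it did not pass after adjustment. Over all 15 libraries r was -0.01 for ETR and EBFa (exact permutation p = 0.950, adjusted 0.950) and -0.03 for ETR and EBFb (exact permutation p = 0.913, adjusted 0.950), and rho was 0.0786 (exact permutation p = 0.784) and 0.0107 (exact permutation p = 0.977). Without K replicates 2 and 3, farthest from the median of ETR, r was 0.257 and 0.282. The only K library left then equals its genotype mean, so K added nothing to these values. Over the 6 hybrid libraries r was 0.929 with EBFa and 0.978 with EBFb, each with an exact permutation p = 0.0278, the smallest that 36 arrangements can give, and an adjusted p of the same value. All 4 other pairs reached this p as well, so it does not rank the pairs, and rho was 0.943 and 1.00. Over these 6 libraries 0.857% of the tested genes had an r with ETR at least as high as EBFa had, and 0.18% as EBFb had. With EIN3, 28.1% had an r at least as high as ETR, 16.6% as EBFa and 28.8% as EBFb. Over the 9 parental libraries r was -0.48 with EBFa (exact permutation p = 0.0324, adjusted 0.0741) and -0.53 with EBFb (exact permutation p = 0.0370, adjusted 0.0741), and rho was -0.52 (exact permutation p = 0.0833, adjusted 0.25) and -0.40 (exact permutation p = 0.167, adjusted 0.25). Of the tested genes, 58% had an r with ETR over the parental libraries at least as high as EBFa had and 63.1% as EBFb had, so negative values with ETR were common there. The difference between hybrids and parents was not tested.

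Within each hybrid, the libraries stood in the same order for every one of the 4 genes. Replicate 1 was highest and replicate 2 lowest in GJ, and replicate 3 was highest and replicate 1 lowest in KJ. How many of all tested genes shared this order was not counted. In each hybrid, replicate 1 had the most tested genes at least 2-fold from the other libraries, 1224 in GJ and 1225 in KJ. In the parents, the libraries that were highest for both F-box genes were G replicate 1, K replicate 2 and J replicate 2, where ETR deviated by -0.38, -0.92 and -0.07 from its genotype mean, EBFa by 0.47, 0.26 and 0.87 and EBFb by 0.63, 0.37 and 0.87. Without these libraries r between ETR and EBFa was 0.798 in the remaining 12 (exact permutation p = 0.0521, adjusted 0.0521) and between ETR and EBFb 0.911 (exact permutation p = 0.0174, adjusted 0.0260). On ranks neither pair passed after adjustment, with rho of 0.503 (exact permutation p = 0.25, adjusted 0.25) and 0.769 (exact permutation p = 0.0451, adjusted 0.0677). The libraries left out are those that stood apart from their genotypes across all genes, and the part of that shift in the values of ETR and the F-box genes was not tested.

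**Figure D3:**
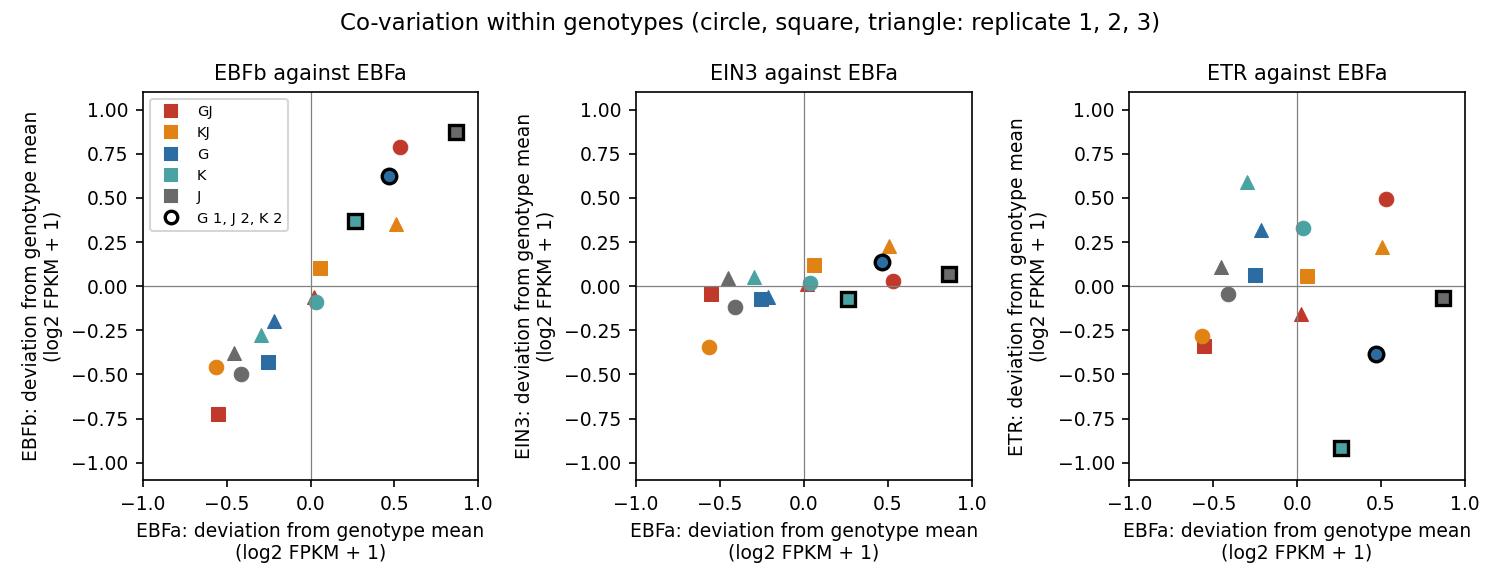
Deviation of EBFb, EIN3 and ETR from the genotype mean against that of EBFa, in log2(FPKM + 1), with 1 point per library, colours for genotypes and black outlines for G replicate 1, J replicate 2 and K replicate 2. EBFb follows EBFa closely (r = 0.968), whereas ETR lies below its genotype mean in the outlined libraries, in which EBFa lies above it.

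ETR and EIN3 had an r of 0.296 over the 15 libraries (exact permutation p = 0.150, adjusted 0.226) and a rho of 0.236 (exact permutation p = 0.369, adjusted 0.553). Without K replicates 2 and 3, and so without any deviation left in K, r was 0.257. Across genes, the median r with all other tested genes was -0.25 for ETR, 0.13 for EIN3 and 0.20 and 0.19 for EBFa and EBFb, so a typical gene had a negative r with ETR and a weakly positive r with the others. Genes share libraries and are not independent replicates.

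**Figure D4:**
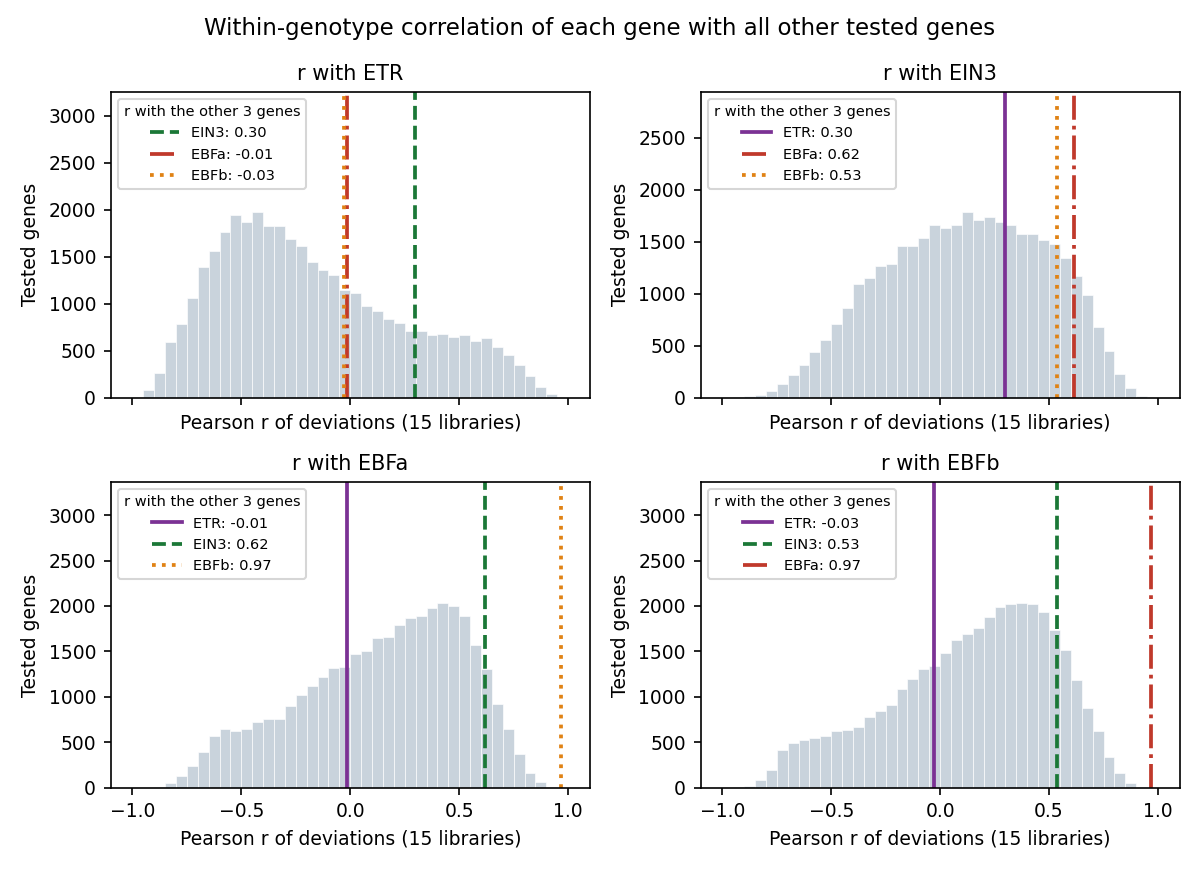
Number of tested genes by their Pearson r with each of the 4 genes, from deviations within genotypes over 15 libraries, with lines at the r of the other 3 genes. The line of EBFb lies at the far right end in the panel of EBFa and the reverse, at 0.97, while the lines of ETR lie near 0 in both.

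The genes most like each of the 4 were sought among all tested genes, by Pearson's r of log2(FPKM + 1) over the 15 libraries, which includes differences between genotypes, and by r of the deviations. EBFa and EBFb were each other's closest gene on both measures (r = 0.971 and 0.968). Next on the first measure was Nitab4.5_0015300g0010 for both, with r = 0.954 for EBFa and 0.964 for EBFb. It had a mean of 19.8 FPKM in GJ, 25.2 in KJ, 12.5 in G, 17.6 in K and 12.0 in J. Next on the second measure were Nitab4.5_0000170g0430 for EBFa (r = 0.948) and Nitab4.5_0007722g0010 for EBFb (r = 0.960). Neither was called in a hybrid against its middle parent, with log2 fold changes of 0.63 in GJ and 0.22 in KJ for the first and -0.28 and -0.73 for the second.

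For ETR the same 2 genes came first on both measures. Nitab4.5_0006368g0030 had r = 0.984 over the 15 libraries and 0.948 within genotypes, with means of 51.9 FPKM in GJ, 73.4 in KJ, 31.1 in G, 41.3 in K and 26.5 in J. It rose against the middle parent in KJ (log2 fold change 1.17 ± 0.23, SE, adjusted p = 0.00192) and was not called in GJ (0.82). Nitab4.5_0013596g0010 had r = 0.977 and 0.968, with means of 30.9 FPKM in GJ, 83.9 in KJ, 5.38 in G, 12.1 in K and 3.13 in J, and rose against the middle parent in GJ (log2 fold change 2.58 ± 0.58, SE, adjusted p = 0.0110) and in KJ (3.75 ± 0.58, adjusted p = 5.60e-04). The likeness of both genes to ETR over the 15 libraries includes the difference between hybrids and parents. Their rises are thus not independent of the way they were picked. For EIN3 the closest genes were Nitab4.5_0002347g0020 (r = 0.953) and Nitab4.5_0006766g0020 (r = 0.951) over the 15 libraries, and Nitab4.5_0001071g0030 and Nitab4.5_0013217g0010 (r = 0.941 each) within genotypes. Nitab4.5_0006766g0020 had means of 97.5 FPKM in GJ, 124 in KJ, 24.7 in G, 69.5 in K and 44.6 in J. None of these IDs has a description in the files.

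Genes that share the first number of an ID with 1 of the 4 were counted as its neighbours by ID, without any position. Of 16 tested neighbours of ETR, 1 was called higher against the middle parent in GJ and in KJ, Nitab4.5_0000342g0310, the next tested ID after ETR, with 17.1 ± 8.48 FPKM in GJ and 17.1 ± 1.77 in KJ against 5.35 ± 2.75 in G, 6.15 ± 2.03 in K, and 6.76 ± 2.90 for the 3 J libraries (SD). Of 4 tested neighbours of EIN3, 1 was called higher in each hybrid, Nitab4.5_0003796g0060, the next tested ID before EIN3, with 3.34 ± 1.87 FPKM in GJ and 2.29 ± 0.741 in KJ against 0.203 ± 0.0252 in G, 0.383 ± 0.199 in K and 0.260 ± 0.0200 in J. It was at most 0.6 FPKM in the parental libraries and passed the filter through the hybrid libraries alone, so its direction in the call is partly set by the filter. Of 23 tested neighbours of EBFa, 0 were called higher and 1 lower in GJ, and 4 higher and 1 lower in KJ. Of all tested genes, 2.4% were called higher and 2.16% lower in GJ, and 4.18% higher and 6.61% lower in KJ. The next ID after EBFa, Nitab4.5_0000028g0360, was among the 4, with 26.6 ± 20.6 FPKM in GJ and 50.03 ± 19.9 in KJ against 12.5 ± 5.89 in G, 14.5 ± 8.28 in K and 8.02 ± 1.29 in J, but its deviations within genotypes did not follow EBFa (r = -0.19). The tested IDs before ETR and EBFa, Nitab4.5_0000342g0250 and Nitab4.5_0000028g0280, and the single tested neighbour of EBFb, Nitab4.5_0004209g0010, were not called in either hybrid against its middle parent.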

How the data were processed

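Root RNA-seq of 15 libraries (5 genotypes, 3 libraries each) was analysed from the deposited table of FPKM, which the authors made by removing short and low-quality reads, mapping to the K326 genome and quantifying with RSEM. The paper names Tophat2 for mapping and the labels list HISAT2 and StringTie, with no versions given in the sources used here. Depth per library is unknown from the file, so no counting error was computed.

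Values were taken as log2(FPKM + 1). A gene was tested when 3 or more libraries reached 1 FPKM. The mean of each genotype was estimated by limma (version 3.58.1, R 4.3.3) with trend and robust options and no covariate, in a single fit of all 15 libraries, with a two-sided moderated test and Benjamini-Hochberg adjustment over 37232 genes. The fit was tested on simulated data. Co-variation, similarity and plots were computed in Python (3.11.15), NumPy (version 2.4.6) and matplotlib (version 3.10.9).

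Named genes are the 4 genes, the 2 most alike per gene and measure, and the nearest tested IDs on either side. The genes, tests and alternatives were chosen with earlier results of these data known. Of 69500 IDs, 0 matched the RefSeq table at hand, so other ethylene pathway genes, marker genes and sequences were not used here. Alternatives were quantile normalization, median-of-ratios scaling, a pseudocount of 0.1, no filter, a filter at 5 FPKM on the mean, a call without the fold limit or without adjustment of p, the genotypes of a comparison alone, no trend or robust option, a replicate block, a linear middle parent, leaving out each library, and leaving out 3 parental libraries together.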

Additional observations from a re-analysis of the deposited data

How the results depend on the processing

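No direction of ETR, EIN3, EBFa or EBFb in a hybrid against its own parents or middle parent turned under any alternative. With 3 libraries per genotype and no read counts, calls near the limits moved. For EBFb in GJ against G (log2 fold change 1.43) the call ended without a filter (adjusted p = 0.0660), with the replicate block (0.0718) and with the genotypes of the comparison alone (0.124), which also ended EBFb against the middle parent of GJ (1.35, 0.0624) and ETR in KJ against K (1.12, 0.0728) and added EBFb in KJ against K (1.17, 0.0235). ETR in GJ against J (1.17) ended without a filter (0.0622). EBFb was called in GJ against J with median-of-ratios scaling (1.35, adjusted p = 0.0478) and with unadjusted p (1.28), and in KJ against K with that scaling (1.48) and unadjusted p (1.17), and in J against K with unadjusted p (-1.02). EIN3 in KJ against J was called with that scaling (1.01) and with quantile normalization (1.03), and without a fold limit it was called in GJ against G (0.79), J (0.69) and the middle parent (0.74) and in KJ against J (0.80) and the middle parent (0.53). With the 3 parental libraries that stood apart left out at once (J replicate 2, K replicate 2, G replicate 1), EBFb was called in GJ against J (1.71) and in KJ against K (1.35), while ETR was not called in GJ against the middle parent (0.91) or in KJ against K (0.66), and ETR in GJ against K turned to -0.15. The cause was not tested. ETR and EIN3, with means under 5 FPKM, could not be fitted with that filter. Of 30 same-numbered pairs across genotypes, whose deviations had r from -0.46 to 0.546, 8 had an r above 0.1, and 3 libraries correlated best with their own number. The labels do not say what the number stands for, and whether it marks a batch was not tested. With the replicate block 1666 genes were called in GJ and 3966 in KJ against the middle parent, and 1697 and 4019 without it. These counts were 2677 and 6714 with a pseudocount of 0.1, 1121 and 2491 with a mean of 5 FPKM as filter and 7448 and 16716 without a fold limit, and 956 in GJ without GJ replicate 1. The block changed no other call of the 4 genes, and the linear middle parent gave values without a test.

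Without 1 library in turn, log2 fold changes in GJ against G, J and the middle parent ran from 0.63 to 1.04, 0.92 to 1.34 and 0.77 to 1.19 for ETR, 0.75 to 0.86, 0.63 to 0.72 and 0.71 to 0.77 for EIN3, 1.39 to 1.93, 1.41 to 2.11 and 1.40 to 1.94 for EBFa, and 1.03 to 1.79, 0.88 to 1.71 and 0.96 to 1.71 for EBFb. In KJ against K, J and the middle parent they ran from 0.66 to 1.41, 1.87 to 2.12 and 1.32 to 1.70 for ETR, 0.15 to 0.43, 0.69 to 0.97 and 0.42 to 0.70 for EIN3, 1.44 to 1.98, 2.23 to 2.91 and 1.83 to 2.37 for EBFa, and 0.99 to 1.40, 1.94 to 2.63 and 1.5 to 1.91 for EBFb. In J against G they ran from -0.45 to 0.22 for EBFa and -0.29 to 0.46 for EBFb, in J against K from -1.32 to -0.56 for ETR, and for the difference of departures of EBFb from -0.72 to 0.0354. GJ against K ran from -0.15 to 0.60 for ETR and -0.14 to 0.62 for EBFb, and GJ against KJ from -0.28 to 0.00141 for EIN3. EBFb in GJ against G and ETR in GJ against J each lost their call in 10 of 15 such fits.

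Within genotypes, EBFa and EBFb kept an r of 0.941 to 0.977 under all alternatives. By unadjusted permutation p, with a limit of 0.05 (passed by EIN3 with both F-box genes over all libraries), ETR and EIN3 passed with median-of-ratios scaling (r = 0.600), quantile normalization (0.622) and without the 3 parental libraries (0.576). EIN3 no longer passed with EBFa (0.476 and 0.443) or EBFb (0.392 and 0.361) under these 2 scalings. EIN3 and EBFa also lost that limit without GJ replicate 2, any KJ library or any G library (p from 0.0509 to 0.133), and EIN3 and EBFb without any KJ library or G replicate 1 (0.0675 to 0.103), while ETR and EIN3 passed without G replicate 1 (0.00309). ETR with EBFa and EBFb turned to r = 0.0568 and 0.0334 with median-of-ratios scaling, 0.0726 and 0.0336 with the replicate block, and 0.798 and 0.911 without the 3 libraries. Without 1 library in turn r ran from -0.21 to 0.220 for ETR and EBFa, -0.32 to 0.261 for ETR and EBFb, 0.183 to 0.454 for ETR and EIN3, 0.530 to 0.701 for EIN3 and EBFa and 0.463 to 0.604 for EIN3 and EBFb.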
